A study of Mus musculus with 12 samples.

Results

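The transcripts of 45 genes of the cell division cycle were followed through the differentiation of mouse embryonic stem (ES) cells with and without the gene Smchd1. The genes were picked by symbol for their known roles, and all 45 were found among the 25965 genes of the table. They fall into 15 genes of DNA replication, 8 genes that control the G1 phase and entry into S phase, and 22 genes of mitosis. Smchd1 encodes a chromatin protein of the SMC family that is known for its part in X inactivation and in the silencing of clustered genes. The cells were male C57BL/6 ES cells that carry floxed Smchd1 alleles, and each line came from its own blastocyst. A part of each line received the retroviral vector MSCV-Cre-puro and was selected with puromycin, which gave Smchd1 del/del cells, and the other part stayed untransduced as Smchd1 fl/fl control. Transduction and selection therefore go with the deletion and cannot be told apart from it. All cells were moved from 2i and LIF medium to serum and LIF and then driven toward neuromesodermal progenitors (NMPs), the bipotent cells of the embryonic tail bud. LIF was withdrawn and Fgf2 given, then an inhibitor of Gsk3, and last Gdf11. The groups were del/del at day 1, 5 and 8 and fl/fl at day 1, 5 and 8, with 2 libraries each. The samples titled day 1 are undifferentiated cells, which the protocol calls day 0. Both groups at each day came from the same 2 lines, line 1 (replicate 1) and line 3 (replicate 2), so that the replicates are separate lines.

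Depth was 1.51 to 8.67 M reads in genes (M, 1000000 reads) per library, 10.1% to 27.8% of the reads that the authors scaled by. The shallowest was the line 3 fl/fl library at day 8, whose replicate correlation across genes (Spearman 0.948) and that of del/del at day 5 (0.947) were the lowest of the 6 groups. The data column of that fl/fl library alone carries the word merge in its name, and the labels do not say what was merged. Levels are given as log2 RPM, the log2 of reads per 1000000 reads, rescaled in each library to the median gene, so that a value of 0 stands for 1 RPM on that relative scale. A change is relative to the median of all genes, and the deposited scale means the values before that rescaling. Smchd1 itself stood at 2.32 and 2.57 in del/del and 5.23 and 5.36 in fl/fl at day 1, at 2.05 and 2.38 against 4.05 and 4.52 at day 5, and at 1.92 and 1.82 against 4.60 and 3.99 at day 8. It was lower in both del/del libraries at each day, as the labels state, though reads of it remained. The log2 differences were -2.84, -2.07 and -2.43 (limma with Benjamini-Hochberg adjustment, adjusted p = 0.00187, 0.043 and 0.00229), and that of day 5 lost its call with the cell line as a block in the model (limma adjusted p = 0.137). Of the 7 tested NMP markers, 6 rose between day 1 and day 5 in both genotypes, against 21.2% of all tested genes in del/del and 23% in fl/fl. The other, Sox2, fell (-1.61 in del/del and -1.57 in fl/fl). Of 7 tested trophoblast markers, 4, with Cdx2 from the NMP list among them, also rose in each genotype. So did 4 of 6 extraembryonic endoderm markers in del/del and 5 of 6 in fl/fl. Between day 5 and day 8, 6 NMP markers fell in del/del and 3 in fl/fl, against 4.67% and 3.58% of all tested genes. Pou5f1, a factor of the undifferentiated state, was at 5.89 and 5.70 in del/del and 6.04 and 5.93 in fl/fl at day 1.

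The cell division cycle copies DNA in S phase and divides it in M phase. The MCM2-7 helicase is loaded at replication origins by Cdc6 and Cdt1 and is made active with Cdc45 and the GINS complex, while D- and E-type cyclins drive the step from G1 into S phase through the Rb protein and the E2F factors. Mitosis then runs on cyclin B with Cdk1, on the Polo and Aurora kinases, on the spindle checkpoint and on condensin. ES cells are known for a short G1 phase, which lengthens as they differentiate. In a bulk sample, fewer cycling cells and less RNA per cell cannot be told apart.

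Replication and mitosis genes are classically read from different promoter elements: E2F sites for many S-phase genes, and CCAAT boxes with a cell cycle homology region (CHR) for many mitotic ones. The RefSeq promoter table (GRCm38.p6) held 34 of the 45 genes, and the 250 bases before the start were searched on both strands. The CHR, searched as TTTGAA or TTCGAA, was found in 3 of 12 replication, 0 of 5 G1 and S entry, and 9 of 17 mitosis promoters, against 17.1% of all 32851 windows of the table. CCAAT was found in 9 of 12, 2 of 5 and 15 of 17 of them, against 33.8% of all windows. At least 2 CCAAT boxes were found in 5 of 12, 1 of 5 and 10 of 17, against 10.1%. The E2F letters TTTGGCGC, TTTCGCGC, TTTCCCGC or TTTGCCGC were found in 4 of 12, 1 of 5 and 2 of 17, against 1.86%. These matches are letters and not shown sites, and E2F matches on opposite strands can overlap. The 5 promoters below are shown as examples of these layouts and were chosen after the counts were seen, with Mcm5 (chr8:75109259-75109508, plus strand) and Mcm6 (chr1:128359706-128359955, minus strand) for replication. Cdk1 (chr10:69352913-69353162, minus strand), Ccnb2 (chr9:70421555-70421804, minus strand) and Top2a (chr11:99024190-99024439, minus strand) stand for mitosis. Each is written 5′ to 3′ in the direction of the gene, and capitals mark the motifs.
Mcm5: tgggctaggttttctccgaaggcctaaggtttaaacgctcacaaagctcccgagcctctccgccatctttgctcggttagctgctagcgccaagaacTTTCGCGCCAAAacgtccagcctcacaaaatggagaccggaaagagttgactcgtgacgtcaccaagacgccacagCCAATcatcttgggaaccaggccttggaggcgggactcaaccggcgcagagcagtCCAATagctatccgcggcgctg
Mcm6: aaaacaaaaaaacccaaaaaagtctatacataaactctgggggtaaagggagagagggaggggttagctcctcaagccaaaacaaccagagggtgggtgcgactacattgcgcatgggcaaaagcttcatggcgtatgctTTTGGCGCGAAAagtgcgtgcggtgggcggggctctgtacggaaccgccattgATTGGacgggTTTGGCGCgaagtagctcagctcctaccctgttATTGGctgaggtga
Cdk1: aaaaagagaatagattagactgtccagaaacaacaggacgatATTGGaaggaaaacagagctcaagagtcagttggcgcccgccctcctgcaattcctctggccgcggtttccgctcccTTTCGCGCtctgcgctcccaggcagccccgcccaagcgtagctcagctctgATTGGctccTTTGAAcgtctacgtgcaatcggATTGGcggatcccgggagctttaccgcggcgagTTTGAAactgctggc
Ccnb2: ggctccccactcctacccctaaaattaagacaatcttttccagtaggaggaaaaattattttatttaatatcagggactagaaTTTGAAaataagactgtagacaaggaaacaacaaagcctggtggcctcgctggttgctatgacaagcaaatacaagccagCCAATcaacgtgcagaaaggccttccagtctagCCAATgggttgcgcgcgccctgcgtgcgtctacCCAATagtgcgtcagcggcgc
Top2a: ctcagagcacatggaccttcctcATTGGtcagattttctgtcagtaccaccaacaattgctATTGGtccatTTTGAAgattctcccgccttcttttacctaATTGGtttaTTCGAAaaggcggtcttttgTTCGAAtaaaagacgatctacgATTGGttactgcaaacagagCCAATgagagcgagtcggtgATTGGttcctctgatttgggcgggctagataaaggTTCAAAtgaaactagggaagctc
In Mcm5 the E2F letters lie on both strands of 1 stretch and overlap, and no CHR match is present. Mcm6 holds such an overlapping pair, a further E2F match and 2 CCAAT boxes. Ccnb2 carries 3 CCAAT boxes in the last 87 bases before its start and a CHR match 167 bases before it, and Top2a carries 6 CCAAT boxes and 4 CHR matches. Cdk1 holds all 3 kinds of motif.

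Undifferentiated cells expressed the whole set. Scaled by exon length, the fl/fl means at day 1 ran from 0.293 RPM per kilobase for Ccnd2 to 33.6 for Cdc20, the activator of the anaphase-promoting complex. Mcm5 at 27.2, Ccnb2 at 26.4 and Mcm3 at 23.5 RPM per kilobase came next. The replication genes averaged 5.46 and 5.37 log2 RPM in the del/del libraries and 5.47 and 5.42 in the fl/fl libraries. The mitosis genes averaged 5.41 and 5.33 in del/del and 5.41 and 5.38 in fl/fl. The level of the replication genes was thus within 0.05 log2 units of that of the mitosis genes in every day 1 library.

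**Figure D1:**
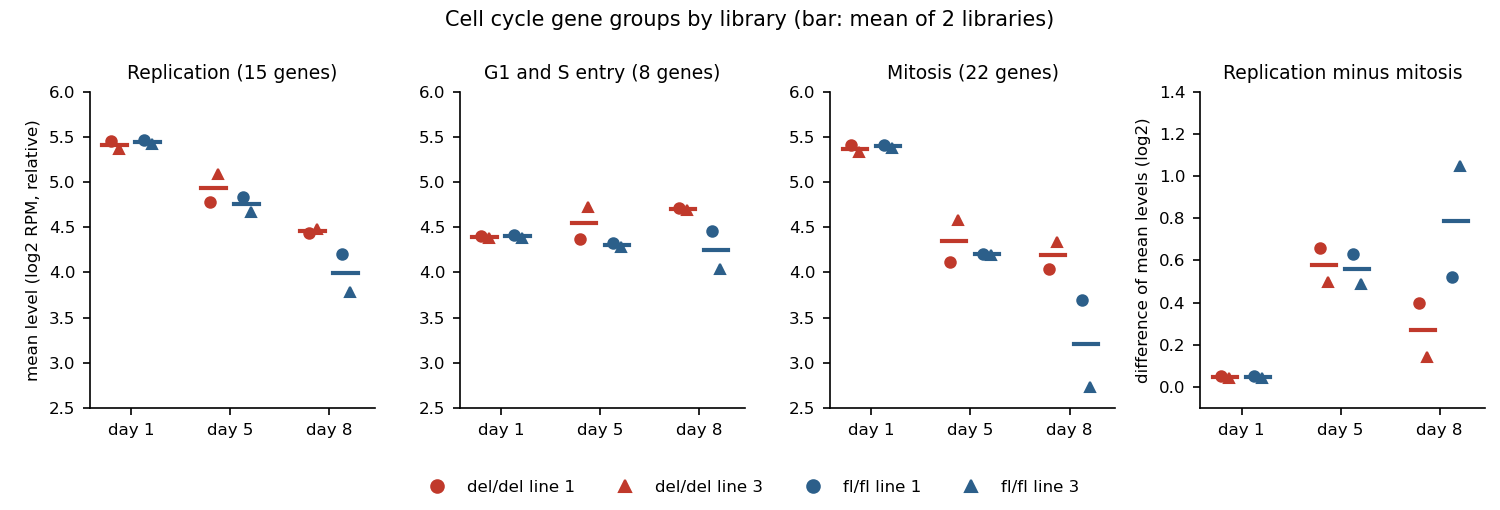
Mean level of the 15 replication, 8 G1 and S entry and 22 mitosis genes in each library (relative log2 RPM), with the difference of replication and mitosis means at the right; del/del is in red and fl/fl in blue, circles are line 1, triangles are line 3 and bars are the mean of 2 libraries. Replication and mitosis means start together at day 1, fall by day 5 and part most at day 8 in the line 3 fl/fl library (1.05).

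Differentiation to day 5 lowered most of the set in both genotypes, and the mitosis genes more than the replication genes. In del/del cells 25 genes fell and 2 rose, against a background of 18.3% of all 14063 tested genes lower and 21.2% higher (limma, adjusted p under 0.05). In fl/fl cells 33 fell and 2 rose, against 17.9% lower and 23% higher. All 45 genes passed the filter on low values. The median change of the replication genes was -0.47 in del/del and -0.65 in fl/fl, and that of the mitosis genes -1.03 in del/del and -1.18 in fl/fl, while the median of all tested genes was 0.03 in del/del and -0.04 in fl/fl.

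Among the replication genes, 6 of 15 fell in del/del and 10 of 15 in fl/fl. The helicase subunit gene Mcm2 stood at 6.75 and 6.66 in del/del and 6.80 and 6.79 in fl/fl at day 1, and at 6.20 and 6.09 in del/del and 6.19 and 5.97 in fl/fl at day 5. All of its day 5 libraries lay below all of its day 1 libraries. Its log2 change was -0.56 ± 0.12 in del/del (SE, limma adjusted p = 0.00322) and -0.72 ± 0.12 in fl/fl (limma adjusted p = 0.000726). Mcm5 fell by 0.71 in del/del and by 0.87 in fl/fl, and Mcm4 by 0.68 and 0.72 (limma adjusted p = 0.00467, 0.00151, 0.0046 and 0.00345). Mcm6 fell less, by 0.45 in del/del and 0.54 in fl/fl (limma adjusted p = 0.0161 and 0.00658). Cdc45, the helicase activator, fell the most of the replication genes called in both genotypes, by 1.11 in each (limma adjusted p = 0.0025 in del/del and 0.00235 in fl/fl). The loader gene Cdc6 fell by 1.06 in del/del (limma adjusted p = 0.0318), and its change in fl/fl was -0.65 ± 0.35 (limma adjusted p = 0.16). Calls in fl/fl alone were made for Mcm3, Mcm7, Gins1, Gins2 and Rrm2, with changes between -0.55 and -1.21, but the difference between the genotypes in these changes was not tested. For Gins2, 67.3% of the exon length overlaps the gene Gse1. The sliding clamp gene Pcna did not pass, with 0.35 ± 0.29 in del/del and -0.38 ± 0.29 in fl/fl, nor did Cdt1, Rrm1 (a subunit of ribonucleotide reductase) and Tyms (thymidylate synthase). With the cell line as a block, Cdt1 was called lower in del/del (-0.39, limma adjusted p = 0.0419, and between 0.0151 and 0.261 over all alternatives).

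The mitosis genes fell in larger numbers, 15 of 22 in del/del and 19 of 22 in fl/fl. Top2a, which encodes the topoisomerase that untangles sister chromatids, stood at 7.31 and 7.25 in del/del and 7.42 and 7.30 in fl/fl at day 1, and at 5.86 and 6.24 in del/del and 5.91 and 5.88 in fl/fl at day 5. Its change was -1.24 ± 0.26 in del/del (limma adjusted p = 0.00336) and -1.46 ± 0.26 in fl/fl (limma adjusted p = 0.00122). Day 5 lay wholly below day 1 for each genotype. The proliferation marker Mki67 fell by 1.37 in del/del and by 1.31 in fl/fl (limma adjusted p = 0.00215 and 0.00274). Cenpf and Cenpe, which encode kinetochore proteins, fell by 1.65 and 1.32 in del/del and by 1.51 and 1.34 in fl/fl (limma adjusted p = 5.86e-05, 0.00356, 0.000101 and 0.00311). The spindle motor gene Kif11 fell by 1.56 in del/del and 1.79 in fl/fl, and the mitotic kinase gene Aurka by 1.27 and 1.19 (limma adjusted p = 0.005, 0.0022, 0.000505 and 0.000745). Bub1b of the spindle checkpoint fell by 1.18 in del/del and 1.30 in fl/fl, and Ncapd2 of condensin I by 0.92 and 1.17 (limma adjusted p = 0.000471, 0.000262, 0.00499 and 0.00126).

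The cyclins of mitosis moved with this group. Ccnb1 stood at 4.09 and 4.00 in del/del and 4.00 and 3.99 in fl/fl at day 1, and at 2.73 and 3.27 in del/del and 2.84 and 2.48 in fl/fl at day 5. Its change was -1.04 ± 0.30 in del/del and -1.33 ± 0.30 in fl/fl (limma adjusted p = 0.019 and 0.00534). Ccnb2 fell by 0.82 in del/del and 1.13 in fl/fl, and Ccna2, the cyclin of S and G2 phase, by 0.83 and 1.06 (limma adjusted p = 0.00807, 0.00124, 0.0177 and 0.00506). Cdk1, their partner kinase, fell by 0.76 in fl/fl (limma adjusted p = 0.0405), with -0.17 ± 0.27 in del/del, where the line 3 library was at 5.86 and the line 1 library at 4.79. Cdc20 fell by 0.61 in del/del and 0.79 in fl/fl, Birc5 by 0.66 and 0.75, and Tpx2 by 0.88 and 1.01 (limma adjusted p between 0.00373 and 0.0254). The Polo kinase gene Plk1 had -1.05 ± 0.41 in del/del and -1.14 ± 0.41 in fl/fl, which passed in fl/fl (limma adjusted p = 0.0662 and 0.0483). Foxm1, a transcription factor of G2 and M genes, had -0.51 ± 0.21 in del/del and -0.47 ± 0.21 in fl/fl and passed in neither. Ncaph and Cdc25c also passed in neither. The checkpoint kinase gene Bub1 fell by 1.23 in del/del and 1.71 in fl/fl (limma adjusted p = 0.0472 and 0.0105). Aurkb and Ncapg passed in fl/fl, with -1.03 ± 0.45 and -1.19 ± 0.44 in del/del and -1.46 ± 0.45 and -1.92 ± 0.44 in fl/fl. With the cell line as a block, the calls of Bub1 in del/del (limma adjusted p = 0.0648) and of Cdk1 and Plk1 in fl/fl (limma adjusted p = 0.0523 and 0.0566) were lost. Over all alternatives the adjusted p ran up to 0.342 for Bub1, 0.202 for Cdk1 and 0.185 for Plk1. The count of calls was 16 in del/del without its line 1 library of day 1, against 24% of all tested genes called in that fit. It was 23 in fl/fl without its line 1 library of day 1 (25.1% of all genes) or its line 3 library of day 5 (27.5%). On the deposited scale the calls over all genes were 826 higher and 4928 lower in del/del and 1221 and 1436 in fl/fl, where the rescaled values gave 2987 and 2574 in del/del and 3234 and 2513 in fl/fl.

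**Figure D2:**
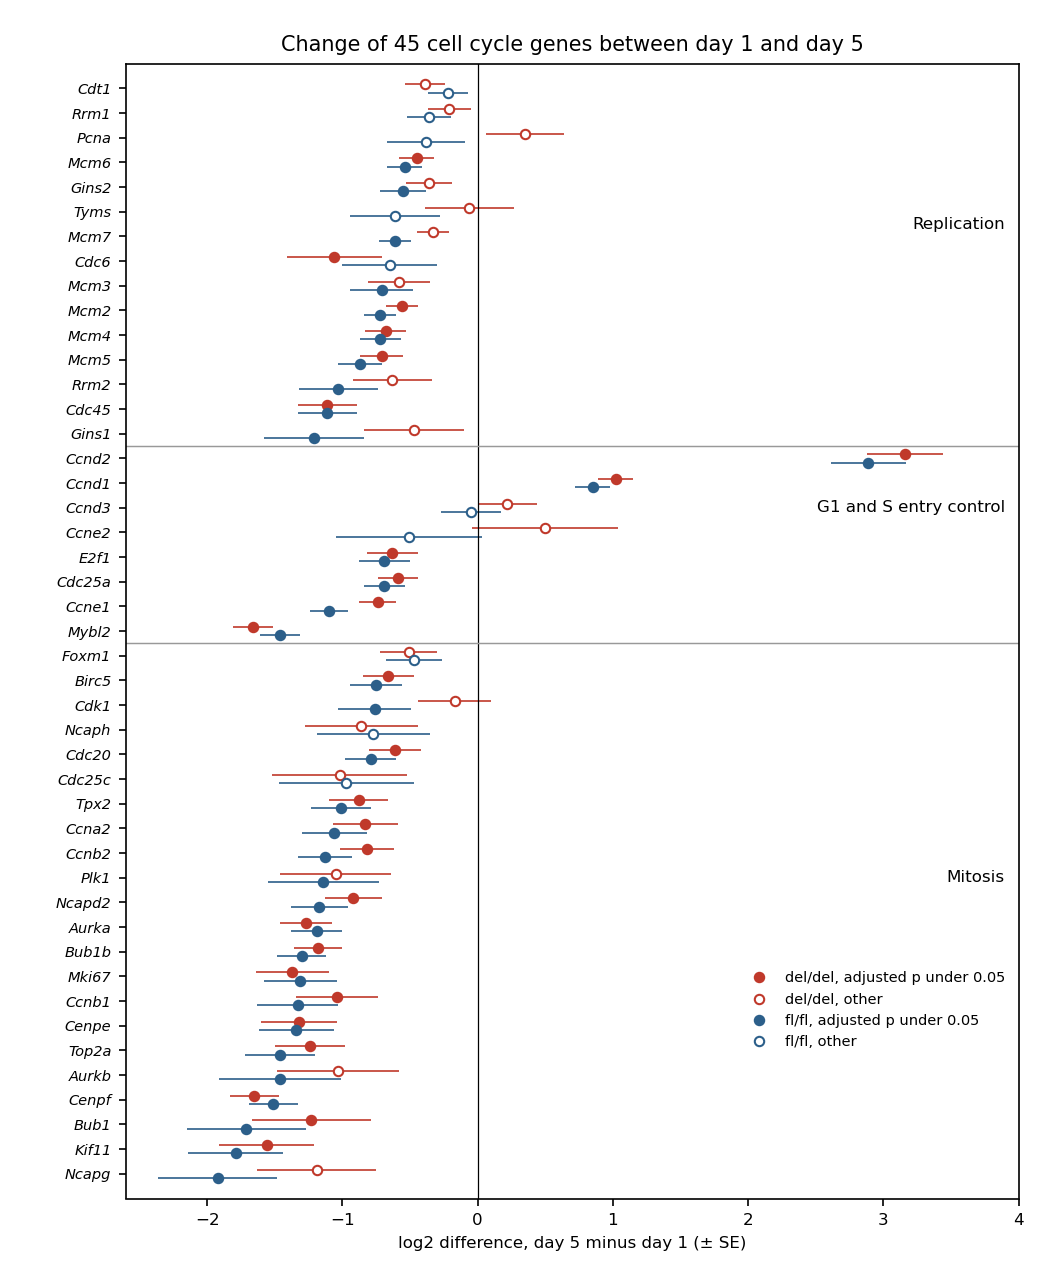
Log2 change between day 1 and day 5 of each of the 45 genes, with its SE from the fit, for del/del (red) and fl/fl (blue); filled points have an adjusted p under 0.05. The mitosis genes lie between -1.92 and -0.17, and Ccnd2 lies alone at 3.16 in del/del and 2.89 in fl/fl.

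The G1 group held the exceptions. Ccnd2, which encodes cyclin D2, was the lowest gene of the set per length at day 1 and rose at each step. Its levels were 1.49 and 1.90 in del/del and 1.49 and 1.44 in fl/fl at day 1, 4.47 and 5.24 in del/del and 4.35 and 4.36 in fl/fl at day 5, and 6.41 and 6.57 in del/del and 5.97 and 5.22 in fl/fl at day 8. Within each genotype no library of a later day overlapped one of an earlier day. It rose 8.91-fold in del/del and 7.40-fold in fl/fl by day 5 (log2 3.16 ± 0.28 and 2.89 ± 0.28, limma adjusted p = 1.55e-05 and 2.88e-05). Between day 5 and day 8 it rose a further 3.11-fold in del/del and 2.36-fold in fl/fl (limma adjusted p = 0.00472 and 0.0274). Ccnd1 (cyclin D1) stood at 4.77 and 4.92 in del/del and 4.90 and 4.97 in fl/fl at day 1, and at 5.95 and 5.77 in del/del and 5.90 and 5.68 in fl/fl at day 5. It rose by 1.02 ± 0.13 in del/del and 0.85 ± 0.13 in fl/fl (limma adjusted p = 0.000162 and 0.000491), though 23.4% of its exon length overlaps the neighbouring gene LTO1. Ccnd3 (cyclin D3) had 0.22 ± 0.22 in del/del and -0.05 ± 0.22 in fl/fl and passed in neither.

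The E-type cyclin gene Ccne1 moved the other way. It stood at 5.40 and 5.37 in del/del and 5.40 and 5.40 in fl/fl at day 1, and at 4.59 and 4.70 in del/del and 4.48 and 4.12 in fl/fl at day 5, so that the days did not overlap. It fell by 0.74 in del/del and 1.10 in fl/fl (limma adjusted p = 0.00186 and 0.000149). Mybl2, a transcription factor that is highly expressed in ES cells, fell 3.17-fold in del/del and 2.75-fold in fl/fl (limma adjusted p = 1.55e-05 and 3.79e-05). E2f1 fell by 0.63 in del/del and 0.69 in fl/fl, and the phosphatase gene Cdc25a by 0.59 and 0.69 (limma adjusted p between 0.00391 and 0.0236). Ccne2 had 0.50 ± 0.54 in del/del and -0.51 ± 0.54 in fl/fl, and its del/del libraries at day 5 were far apart, at 2.67 in line 1 and 4.83 in line 3.

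**Figure D3:**
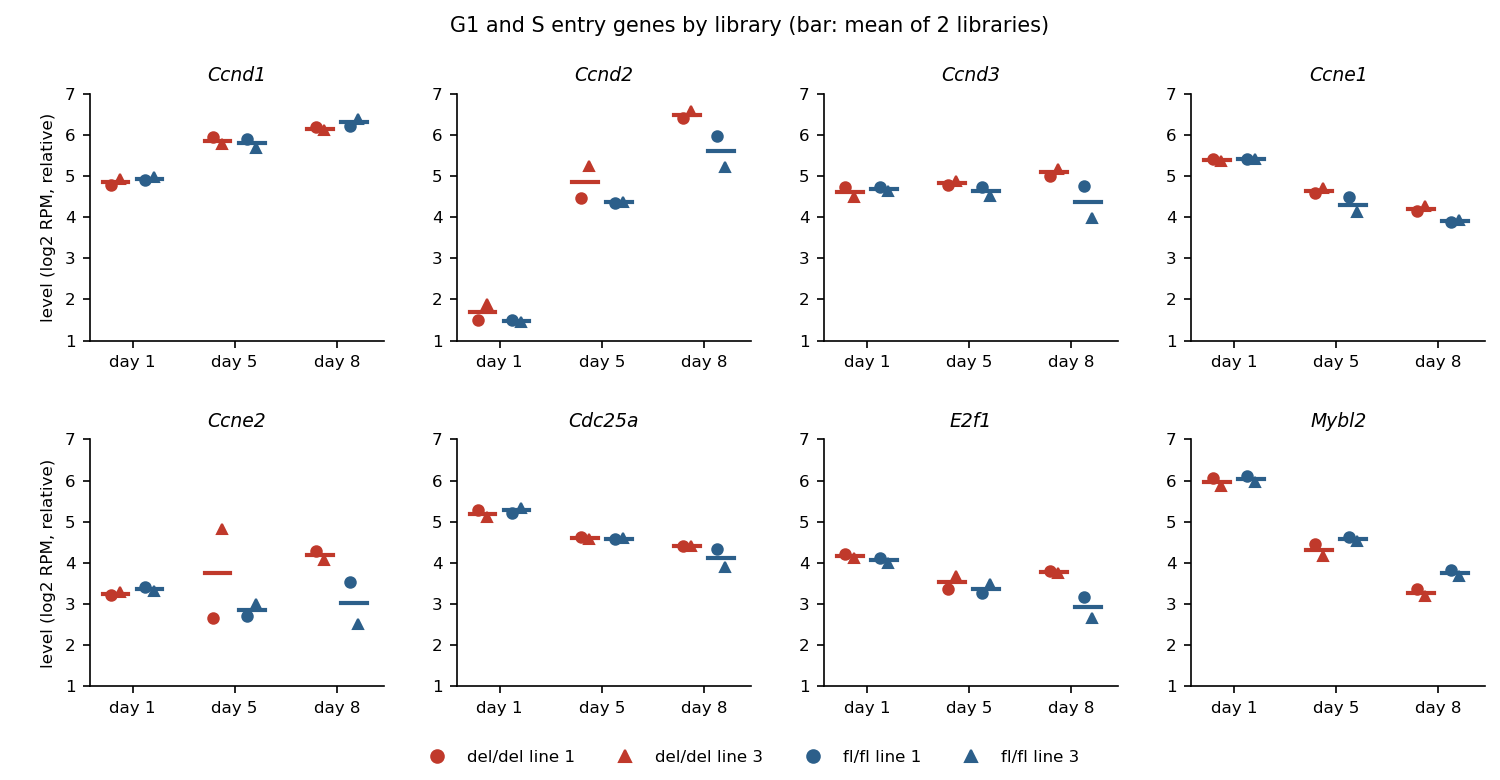
Level of each of the 8 G1 and S entry genes in each library (relative log2 RPM); del/del is in red and fl/fl in blue, circles are line 1, triangles are line 3 and bars are the mean of 2 libraries. Ccnd2 climbs at each step in both genotypes while Mybl2 descends, and the Ccne2 value of 4.83 in the line 3 del/del library at day 5 stands apart.

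From day 5 to day 8 the genotypes had different numbers of calls, which lay closer together with voom weights. The direct test of the difference between the genotypes in these changes passed for 0 of 45 genes (limma). In del/del cells 6 genes fell and 1 rose, against 4.67% of tested genes lower and 7.24% higher (limma). In fl/fl cells 19 fell and 2 rose, against 3.58% lower and 3.15% higher. Called lower in del/del were Mcm2, Mcm5, Mcm6, Mcm7, Cdt1 and Mybl2. Each of these 6 was also called lower in fl/fl, where Mcm3 (-1.34), Mcm4 (-0.67), Cdc6 (-1.58), Cdc45 (-1.06) and Rrm1 (-0.65) were called besides. Cdt1 fell by 0.95 in del/del and 0.94 in fl/fl (limma adjusted p = 0.0035 and 0.00823), and its levels were 3.94 and 3.92 in del/del and 4.37 and 3.95 in fl/fl at day 8. Mcm7 fell by 0.72 in del/del and 0.78 in fl/fl, and Mcm5 by 0.70 and 0.98 (limma adjusted p between 0.00544 and 0.0187). Mcm2 fell by 0.45 in del/del and 0.63 in fl/fl, Mcm6 by 0.47 and 0.48, and Mybl2 by 1.03 and 0.83 (limma adjusted p between 0.00193 and 0.0476). In del/del the change of Cdc6 was -0.73 ± 0.35 and that of Cdc45 0.12 ± 0.22. These falls are relative to the median gene. On the deposited scale the del/del median of the replication genes turned to 0.23 and that of the mitosis genes to 0.52, since the median gene is shifted by 0.69 there. That scale gave 1096 genes higher and 51 lower in del/del and 24 and 152 in fl/fl, where the rescaled values gave 1018 and 657 in del/del and 443 and 503 in fl/fl.

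Of the mitosis genes, 0 of 22 were called in del/del by limma (1 lower with voom weights), with a median change of -0.18. There, an unadjusted limma p under 0.05 was reached by 3979 of all 14063 tested genes and by 1 of the 22. In fl/fl 8 of 22 were called lower, with a median of -1.01. They were Ccnb2, Cdc20, Bub1b, Cenpf, Tpx2, Birc5, Foxm1 and Ncapd2. Tpx2, which targets Aurora A to the spindle, stood at 5.10 and 5.08 in del/del and 5.07 and 4.93 in fl/fl at day 5, and at 4.85 and 5.09 in del/del and 4.41 and 3.57 in fl/fl at day 8. Its change was -0.12 ± 0.22 in del/del and -1.01 ± 0.22 in fl/fl (limma adjusted p = 0.754 and 0.0232). Cdc20 had -0.64 ± 0.19 in del/del and -1.12 ± 0.19 in fl/fl (limma adjusted p = 0.0525 and 0.0095). Ccnd1 rose in fl/fl by 0.52 ± 0.13 (limma adjusted p = 0.0407), a call lost with the cell line as a block (limma adjusted p = 0.0578) and at -0.04 on the deposited scale, and had 0.29 ± 0.13 in del/del. The 21 fl/fl calls depend on single libraries: their number was 11 without the line 3 and 39 without the line 1 fl/fl library at day 8, with 3.16% and 23.1% of all tested genes called in the same fits. It was 6 without the line 3 and 0 without the line 1 fl/fl library at day 5 (1.91% and 0.398% of all genes), and 12 or 13 without any 1 of the day 1 libraries (3.61% to 3.83%). The 7 del/del calls became 12 without either fl/fl library at day 8 (20.4% or 20.5% of all genes), 4 without the line 1 and 2 without the line 3 del/del library at day 8 (5.06% and 2.55%).

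Whether replication and mitosis genes moved together can be read inside each library, where the library scale cancels. The mean level of replication genes minus that of mitosis genes was 0.05 and 0.04 in del/del and 0.05 and 0.04 in fl/fl at day 1. At day 5 it was 0.66 and 0.50 in del/del and 0.63 and 0.49 in fl/fl. At day 8 it was 0.40 and 0.14 in del/del and 0.52 and 1.05 in fl/fl. The gap was larger at day 5 than at day 1 in every library, with no overlap. At day 8 both del/del libraries lay below both fl/fl libraries, and the line 3 fl/fl library was the highest of the 12. By gene medians, the replication change minus the mitosis change was 0.57 in del/del and 0.53 in fl/fl from day 1 to day 5, and -0.30 in del/del and 0.30 in fl/fl from day 5 to day 8. Without the line 3 fl/fl library at day 8, that last value was 0.0.

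Deletion of Smchd1 gave no called change of the set in undifferentiated cells. At day 1, 0 of 45 genes passed by limma (0 with voom weights), against 0.00711% of all tested genes. An unadjusted limma p under 0.05 was reached by 170 of all 14063 tested genes and by 0 of the 45. The lowest p values belonged to Mcm7, with a difference of -0.13 ± 0.12, Ccnd2 with 0.23 ± 0.28 and Mcm2 with -0.09 ± 0.12 (limma adjusted p = 1 for each). Every difference lay between -0.16 and 0.23 log2 units. Mcm7 was 0.03 and Mcm2 0.07 on the deposited scale, which shifts the median gene by 0.15.

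At day 5, 0 of 45 genes passed by limma (0 with voom weights), again against 0.00711%. An unadjusted limma p under 0.05 was reached by 1088 of all 14063 tested genes and by 1 of the 45. Ccne1 had the lowest p, with 4.59 and 4.70 in del/del and 4.48 and 4.12 in fl/fl, a difference of 0.35 ± 0.14 (limma adjusted p = 0.597) that was -0.03 on the deposited scale. Gins1 had 0.74 ± 0.37 and Tyms 0.65 ± 0.33, and both followed 1 library. Gins1 was at 3.17 in line 1 and 4.53 in line 3 of del/del, and at 3.38 and 2.84 in fl/fl. Tyms was at 4.09 in line 1 and 5.07 in line 3 of del/del, and at 4.10 and 3.75 in fl/fl. The line 3 del/del library at day 5 exceeded the line 1 one in 34 of 45 genes, with a median of 0.27 and 8 genes over 0.9: Ccne2, Cdc25c, Bub1, Gins1, Cdk1, Tyms, Pcna and Ncapg. Across the 45 genes this excess had a Spearman correlation of -0.46 with the GC content of the transcript, against -0.20 across 11864 genes, all from the same 2 libraries. For the line 3 minus the line 1 fl/fl library at day 8 that correlation was 0.29 across the 45 genes, against 0.06 across the 11864 genes. The part of GC content in these values was not tested. Without the line 1 del/del library at day 5, 5 of 45 genes were called higher, against 6.85% of all tested genes higher in that fit.

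At day 8, 18 of the 45 genes were called higher in del/del cells and 0 lower, against 7.95% of tested genes higher and 7.05% lower (limma, adjusted p under 0.05). Both del/del libraries lay above both fl/fl libraries in 37 of 45 genes, against 32.1% of all tested genes, and below both in Cdt1, Ccnd1 and Mybl2. The median difference was 0.38 for replication, 0.51 for G1 and S entry and 0.93 for mitosis genes, against 0.02 for all genes tested. Calls were made for 4 of 15 replication, 2 of 8 G1 and S entry and 12 of 22 mitosis genes. This difference between replication and mitosis genes is a description, since no test over members was made.

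Within replication, Cdc45 stood at 3.61 and 3.85 in del/del and 2.80 and 2.06 in fl/fl. The groups did not overlap, and the difference was 1.30 ± 0.22, or 2.46-fold higher (limma adjusted p = 0.0092). It was called in 11 of the 12 fits that left out 1 library, and over all alternatives its adjusted p ran between 0.000328 and 0.1. Rrm1, the large subunit of ribonucleotide reductase, stood at 5.53 and 5.65 in del/del and 5.08 and 4.63 in fl/fl and was 1.67-fold higher (0.74 ± 0.16, limma adjusted p = 0.0183). Mcm3 stood at 5.22 and 5.18 in del/del and 4.87 and 3.94 in fl/fl, a difference of 0.79 ± 0.23 (limma adjusted p = 0.0419). Tyms stood at 4.05 and 4.07 in del/del and 3.47 and 2.48 in fl/fl, a difference of 1.09 ± 0.33 (limma adjusted p = 0.0496). In these last 2 the line 3 fl/fl library was much the lowest. The other helicase subunits differed less: Mcm2 had 0.25 ± 0.12, Mcm5 0.34 ± 0.16, Mcm4 0.24 ± 0.15, Mcm7 0.22 ± 0.12 and Mcm6 0.03 ± 0.13, and none passed. Rrm2, the small subunit of ribonucleotide reductase, had 0.90 ± 0.29 (limma adjusted p = 0.0587). Pcna had 0.01 ± 0.29, and Cdc6 had 0.55 ± 0.35 with 2.37 and 2.56 in del/del and 2.64 and 1.20 in fl/fl, so that its groups overlapped.

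Among G1 and S entry genes, E2f1 stood at 3.81 and 3.75 in del/del and 3.18 and 2.66 in fl/fl, without overlap. Its difference was 0.86 ± 0.19, or 1.82-fold higher (limma adjusted p = 0.0206). Ccnd3 stood at 5.01 and 5.18 in del/del and 4.75 and 3.98 in fl/fl, a difference of 0.73 ± 0.22 (limma adjusted p = 0.0457). Ccnd2 had 0.90 ± 0.28 and did not pass (limma adjusted p = 0.0516), nor did Ccnd1 with -0.15 ± 0.13 and Ccne1 with 0.29 ± 0.14. Mybl2 stood at 3.37 and 3.19 in del/del and 3.82 and 3.67 in fl/fl, a difference of -0.47 ± 0.15 against the run of the set. It did not pass (limma adjusted p = 0.0545), passed as lower with the cell line as a block (limma adjusted p = 0.0385, and between 0.0217 and 0.4 over all alternatives), and was 0.41 on the deposited scale.

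The mitosis genes had the most calls. Ncapd2 of condensin I, the complex that compacts mitotic chromosomes, stood at 5.18 and 5.42 in del/del and 4.61 and 3.89 in fl/fl, and was 2.07-fold higher (1.05 ± 0.21, limma adjusted p = 0.015). The other condensin I genes followed: Ncapg stood at 3.94 and 4.39 in del/del and 3.32 and 1.66 in fl/fl, and Ncaph at 3.86 and 4.31 in del/del and 3.52 and 1.72 in fl/fl. Their differences were 1.68 ± 0.44 and 1.46 ± 0.42 (limma adjusted p = 0.032 and 0.042), and the line 3 fl/fl value was far below the other 3 for each. Tpx2 had 0.98 ± 0.22 (limma adjusted p = 0.0198), Ccnb2 0.88 ± 0.20 (limma adjusted p = 0.0213) and Bub1b 0.78 ± 0.18 (limma adjusted p = 0.0218). Top2a stood at 5.99 and 6.21 in del/del and 5.60 and 4.59 in fl/fl and was 2-fold higher (1.00 ± 0.26, limma adjusted p = 0.0302). Aurka, Mki67, Cdc25c and Kif11 had 0.72 ± 0.19, 0.96 ± 0.27, 1.81 ± 0.50 and 1.18 ± 0.35 (limma adjusted p = 0.0339, 0.0366, 0.0384 and 0.0453). Cdc25c rests on few reads, 7 in its lowest library. Aurkb, the kinase of the chromosomal passenger complex, stood at 3.09 and 3.81 in del/del and 2.78 and 1.11 in fl/fl, a difference of 1.50 ± 0.45 (limma adjusted p = 0.0458), with 15 reads in its lowest library.

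Of the 10 mitosis genes that did not pass, Plk1 had 1.23 ± 0.41, with 3.86 and 4.29 in del/del and 3.73 and 1.95 in fl/fl (limma adjusted p = 0.0664). Bub1, Cenpe and Birc5 had 1.37 ± 0.44, 0.90 ± 0.28 and 0.60 ± 0.19, and Cdc20 and Cenpf 0.55 ± 0.19 and 0.41 ± 0.18. Cdk1 had 0.62 ± 0.27, Ccna2 0.61 ± 0.24, Ccnb1 0.55 ± 0.30 and Foxm1 0.67 ± 0.21 (limma adjusted p between 0.0513 and 0.217). In Ccnb1 the groups overlapped, with 2.23 and 2.57 in del/del and 2.33 and 1.37 in fl/fl. It was the sole mitosis gene in which a del/del library fell below a fl/fl one.

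The size of the day 8 difference was not the same in both lines. Each line has 1 library per genotype at that day, so the line cannot be told apart from the single library. The mitosis genes averaged 4.04 in line 1 and 4.34 in line 3 of del/del, and 3.69 and 2.73 in fl/fl. In line 1 the del/del minus fl/fl difference was above 0 in 21 of 22 mitosis genes, with a median of 0.33, and in line 3 in 22 of 22, with a median of 1.52. For the replication genes it was above 0 in 12 of 15 in each line, with medians of 0.25 and 0.55. Of all 14063 tested genes it was above 0 in 6908 in line 1 and 7309 in line 3, with medians of -0.01 and 0.04. The line 3 fl/fl library, the shallowest of all with 1.51 M gene reads, lay above the line 1 one in 4 of 45 genes, with a median difference of -0.68. Without it, 1 of 45 genes was called higher, Cdc45 with 0.93 (limma adjusted p = 0.0379), against 1.33% of all tested genes, and the median mitosis difference was 0.49. The count was 0 without the line 3 and 5 without the line 1 del/del library at day 8, and 33 without the line 1 fl/fl library, with 0.391%, 5.3% and 33.1% of all tested genes called in either direction. It was 7 or 8 without any 1 of the day 1 or fl/fl day 5 libraries (8.69% to 10.4% of all genes), and 27, of which 26 higher, without either del/del day 5 library (23.7%). With the cell line as a block, 12 genes were called higher. The calls of Tyms, Cdc25c, Aurkb, Mki67, Kif11 and Ncaph were lost (limma adjusted p between 0.05 and 0.0673). The deposited scale, on which the median gene is shifted by 0.90, gave 36 calls higher and 3227 genes higher against 68 lower over the whole table, where the rescaled values gave 1118 higher and 991 lower.

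**Figure D4:**
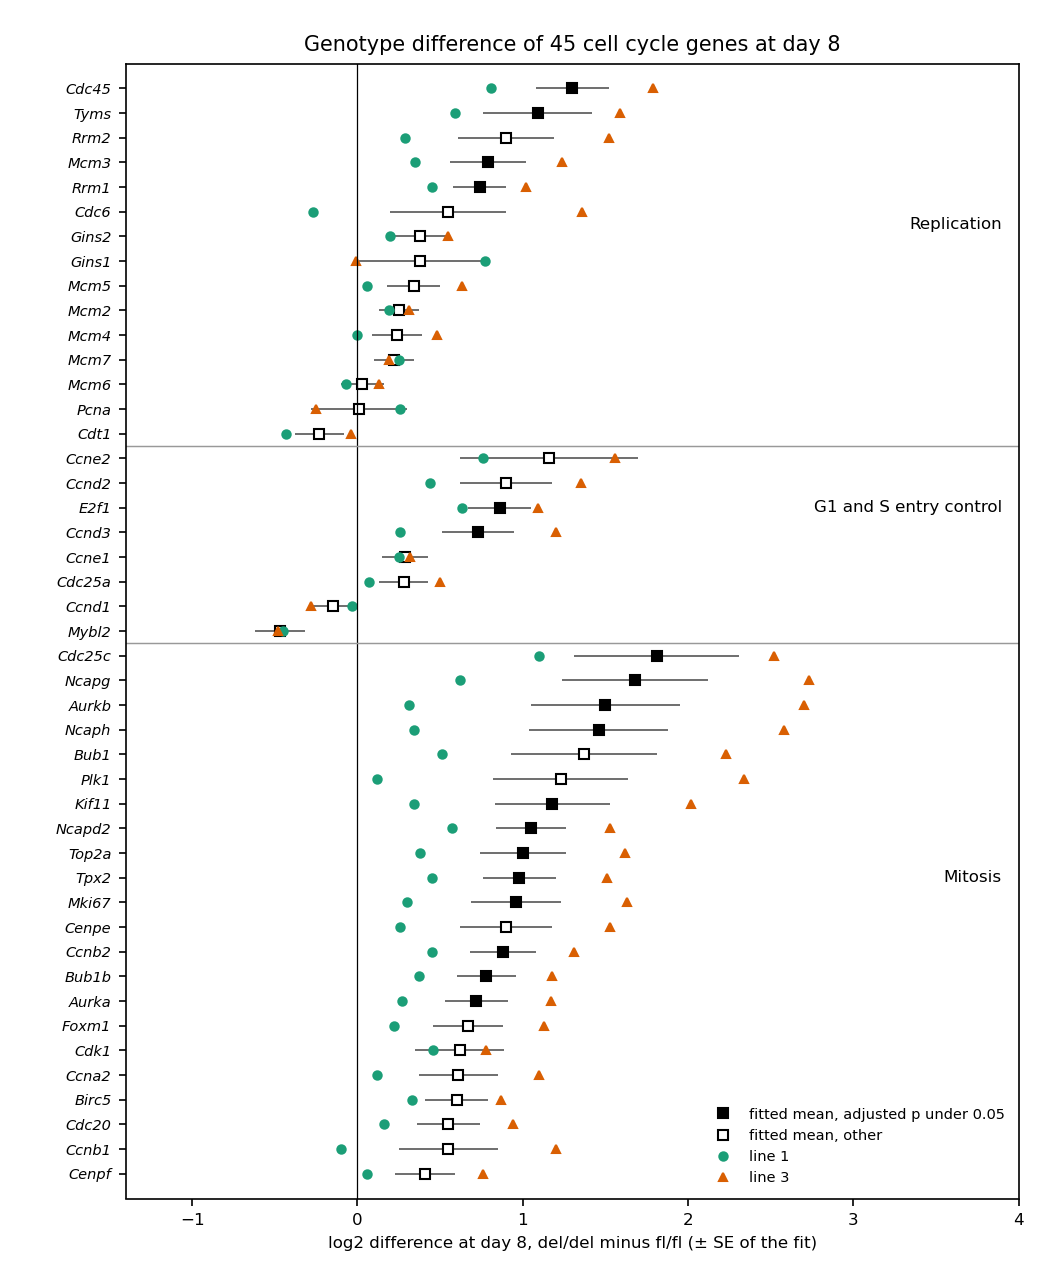
Log2 difference at day 8, del/del minus fl/fl, for each of the 45 genes: squares are the fitted mean of both lines with its SE, filled at an adjusted p under 0.05, circles are line 1 alone and triangles line 3 alone. In the mitosis genes the triangles (median 1.52) lie to the right of the circles (median 0.33), and 18 squares are filled in all.

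Summed levels of markers of other cell types also differed at day 8, on the same relative scale. The counts of called markers stand against 7.95% of all tested genes called higher and 7.05% lower. Most of these marker calls did not hold without the shallow line 3 fl/fl library, a fit that leaves 1 fl/fl library at day 8. The 8 fibroblast markers summed to 446 to 576 RPM in del/del and 68.9 to 252 in fl/fl, with 1 of 8 called higher (Thy1). Pdgfra went the other way in the mean, at 3.62 and 4.82 log2 RPM in del/del and 5.26 and 3.83 in fl/fl. Thy1 was at 4.44 and 4.76 log2 RPM in del/del and 1.68 and -1.80 in fl/fl, lowest in the shallow line 3 library. The trophoblast markers summed to 63.4 to 88.3 in del/del and 161 to 355 in fl/fl (4 of 7 tested called lower, and 3 with the cell line as a block, where Prl3b1 was lost at a limma adjusted p of 0.0661), and those of extraembryonic endoderm to 283 to 416 and 644 to 809 (2 of 6 lower). Undifferentiated ES cell markers summed to 45.9 to 56.3 in del/del and 86.7 to 101 in fl/fl (3 of 8 lower), NMP markers to 24.2 to 30.1 and 41.5 to 46.8 (1 of 7 lower). Neuron markers summed to 55.3 to 113 in del/del and 162 to 328 in fl/fl (1 of 4 tested higher and 1 lower). That sum is mostly Nefm, a neurofilament gene, at 6.36 and 5.05 in del/del and 7.16 and 8.26 in fl/fl on the log2 RPM scale (-2.01 ± 0.42, limma adjusted p = 0.0168). Tubb3, a neuronal tubulin gene, was higher, at 3.88 and 3.17 in del/del and 2.22 and 2.59 in fl/fl (1.12 ± 0.30, limma adjusted p = 0.0353). Endothelial markers summed to 3.25 to 8.5 in del/del and 19.5 to 32.3 in fl/fl (1 of 5 lower). A call of 1 of 8, 1 of 7, 1 of 5 or 1 of 4 markers is not told apart from the share of all tested genes. Elf5 was listed at 0 reads in both del/del and Wnt3a in both fl/fl libraries. The part of these cell types in the cell cycle differences was not tested.

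The change of the genotype difference between day 5 and day 8 was tested directly. It passed for 0 of 45 genes by limma (0 with voom weights), against 0.00711% of all tested genes. An unadjusted limma p under 0.05 was reached by 1925 of all 14063 tested genes and by 15 of the 45. The lowest p values belonged to Cdc45 with 1.18 ± 0.31, Ncapd2 with 0.88 ± 0.29 and Aurka with 0.81 ± 0.27 (limma adjusted p = 0.254, 0.329 and 0.329). Without the line 1 fl/fl library at day 8, 23 genes passed, with 15.5% of all tested genes passing in that fit. The mean genotype difference over the 3 days passed for 0 genes by limma (0 with voom weights), against 0.107%. Here 3447 of all 14063 tested genes and 20 of the 45 had an unadjusted limma p under 0.05. Cdc45 had 0.51 ± 0.13, Bub1b 0.35 ± 0.10 and Ccnd2 0.54 ± 0.16 (limma adjusted p = 0.0742, 0.0927 and 0.0937). Without the line 1 del/del library at day 5 the count was 17 (21.7% of all tested genes), and without the line 1 fl/fl library at day 8 it was 26 (18.9%).

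Other genes of the same pathways were counted from lists that do not share members with the set, and their counts stand against the same shares of all tested genes, 18.3% lower in del/del and 17.9% in fl/fl by day 5. Of 29 origin and polymerase genes, 12 fell from day 1 to day 5 in del/del and 18 in fl/fl, with medians of -0.55 and -0.73, among them Pola1 and Pold1, catalytic subunits of DNA polymerases alpha and delta (-1.77 and -1.10 in del/del, -1.44 and -1.21 in fl/fl, limma adjusted p between 4.64e-05 and 0.000231). Of 30 tested spindle, checkpoint and APC/C genes, 19 fell in del/del and 20 in fl/fl, with medians of -1.07 and -0.98. Ect2, a regulator of cytokinesis, fell by 1.95 in del/del and 1.66 in fl/fl (limma adjusted p = 0.000236 and 0.000645). Of 11 condensin and cohesin genes 5 fell in each genotype, among them Esco2 and Ncapd3. Of 7 CDK inhibitors, 4 rose by day 5 in each genotype, against 21.2% of all tested genes in del/del and 23% in fl/fl: Cdkn2b by 2.10 in del/del and 2.56 in fl/fl, Cdkn2a by 1.85 and 2.24, Cdkn1a by 1.65 in each and Cdkn1c by 1.63 and 1.83 (limma adjusted p between 2.91e-05 and 0.00431). Cdkn1a, which encodes p21, stood at 4.51 and 4.47 in del/del and 4.52 and 4.39 in fl/fl at day 1, and at 6.26 and 6.01 in del/del and 6.24 and 5.97 in fl/fl at day 5. Cdkn1b, which encodes p27, was called lower in del/del and not in fl/fl, at 2.75 and 2.67 in del/del and 2.75 and 2.82 in fl/fl at day 1, and at 1.61 and 2.01 in del/del and 2.10 and 2.34 in fl/fl at day 5.

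At day 8 the same lists were compared between del/del and fl/fl, against 7.95% of all tested genes called higher and 7.05% lower. Of the origin and polymerase genes 6 of 29 were higher, and 5 with the cell line as a block, with a median of 0.59, among them the primase gene Prim1 (1.43 ± 0.27, limma adjusted p = 0.0142). Of the spindle, checkpoint and APC/C genes 11 of 30 were higher, and 8 with the block, with a median of 0.73. The kinesin gene Kif2c was at 3.86 and 4.21 in del/del and 3.25 and 2.66 in fl/fl, a difference of 1.09 ± 0.20 (limma adjusted p = 0.0141). Spc24, Racgap1 and the centromeric histone gene Cenpa had 1.22 ± 0.24, 0.82 ± 0.17 and 1.05 ± 0.24 (limma adjusted p = 0.0157, 0.0163 and 0.0213). Among the 7 CDK inhibitors, Cdkn1a was lower, at 6.20 and 6.07 in del/del and 6.50 and 7.51 in fl/fl (-0.87 ± 0.25, limma adjusted p = 0.044, a call lost with the cell line as a block at 0.0617). Cdkn2d was higher, at 2.81 and 3.08 in del/del and 1.76 and 2.01 in fl/fl (1.06 ± 0.26, limma adjusted p = 0.0253). Of 13 interphase kinase genes Chek1 was higher (1.25 ± 0.35) and Wee1, an inhibitory kinase of Cdk1, lower (-0.70 ± 0.18), and of 12 Rb and E2F genes Tfdp2 was higher (1.09 ± 0.30) and E2f4 lower (-0.42 ± 0.13), the last of which was lost with the block (limma adjusted p = 0.059). A call of 1 of 13 or 1 of 12 genes is near the share of all tested genes. The call of 1 of 7 CDK inhibitors in each direction is not told apart from that share either. Of 11 condensin and cohesin genes 0 passed by limma, and 1 was called lower with voom weights. At an unadjusted limma p under 0.05 were 4 of the 11, near the share of all tested genes (4857 of 14063). Without the line 3 fl/fl library at day 8, the limma adjusted p of the genes named here was between 0.0645 and 0.197.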

How the data were processed

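RNA from 12 cultures was sequenced, 2 libraries per genotype and day. The authors deposited 1 table of log2 RPM (reads per 1000000 reads) for 25965 genes. The tools named in the submitters' processing notes are bcl2fastq, TopHat2 2.0.12 and edgeR, with mm10 as the mouse build. Raising the deposited log2 values gave whole multiples of 1 read for 100% of values within 0.02 reads, with 0 reads entered as 0.9 reads. The denominators came out at 14.89 to 34.04 M reads (M, 1000000 reads) and the reads in genes at 1.51 to 8.67 M, which limits the precision of low genes. No source used here says what the denominators count besides the gene reads.

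Each library was shifted by the median of its log ratios over the 14063 genes above a log2 RPM of 0 in at least 2 libraries. The 6 group means were fitted with limma 3.58.1 in R 4.3.3 with a trend in the variance, and p-values were adjusted over all 14063 genes by the Benjamini-Hochberg method, with a threshold of 0.05. A fold change is on the log2 RPM scale with no added pseudocount. The fit was tested on simulated data.

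Alternatives were the cell line as a block, the deposited scale, a TMM scale (trims 0.3 and 0.05), no filter (21904 genes), log2(RPM + 1), voom weights on the recovered reads, removal of a trend with read density (lowess span 0.5) and leaving out each library. Same-numbered libraries of both genotypes came from the same cell line, per the labels, so the numbers pair them, although their deviations from the group means had Spearman correlations of 0.15 at day 1, -0.28 at day 5 and -0.12 at day 8. Comparisons of both genotypes at 1 day share samples with the comparisons between days. Members and lists were chosen with earlier results of these data known. All 45 members are accounted for; those given in full were fixed genes of each role, those past the threshold (up to 10 per role with the smallest p) and, where none passed, the 3 with the smallest p. Of other pathway lists, up to 4 called genes with the smallest p were named.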

Additional observations from a re-analysis of the deposited data

Results flagged for a closer look

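For 5 of the 45 genes the day 8 value lay above the day 5 value in del/del cells of both lines and below it in fl/fl cells of both lines. The share of all tested genes with this pattern was not counted, so it is not known whether 5 of 45 is unusual. The day 8 minus day 5 difference (log2, relative to the median gene) of Cdc45 was 0.12 in del/del and -1.06 in fl/fl, and that of E2f1 0.26 in del/del and -0.45 in fl/fl. Among mitosis genes, Aurka had 0.10 in del/del and -0.72 in fl/fl, Mki67 0.11 in del/del and -0.90 in fl/fl, and Ncaph 0.36 in del/del and -1.19 in fl/fl. The difference between these values was 1.18 ± 0.31 for Cdc45, 0.71 ± 0.27 for E2f1, 0.81 ± 0.27 for Aurka, 1.01 ± 0.37 for Mki67 and 1.55 ± 0.59 for Ncaph. It passed the threshold for none of the 5 (limma adjusted p = 0.254, 0.348, 0.329, 0.342 and 0.348).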

How the results depend on the processing

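With 2 libraries a group the counts of calls moved with single libraries. Leaving out 1 library gave 0 to 0 calls at day 1, 0 to 5 at day 5, 0 to 33 at day 8, 0 to 26 for the mean over days, 0 to 23 for the change of the genotype difference, 16 to 36 (del/del) and 23 to 39 (fl/fl) from day 1 to day 5, and 2 to 12 (del/del) and 0 to 39 (fl/fl) from day 5 to day 8. The replication minus mitosis difference then ran between -0.02 and 0.0 at day 1, -0.12 and 0.12 at day 5, -0.92 and -0.23 at day 8, -0.24 and -0.09 for the mean, -0.80 and -0.33 for the change of the genotype difference, 0.31 and 0.73 (del/del) and 0.46 and 0.60 (fl/fl) from day 1 to day 5, and -0.48 and -0.13 (del/del) and 0.0 and 0.52 (fl/fl) from day 5 to day 8. On the deposited scale the calls numbered 36 at day 8, 23 in fl/fl from day 1 to day 5, and 1 in del/del and 4 in fl/fl from day 5 to day 8. The calls over all genes on that scale are given with the results. With voom weights the calls among the 45 genes numbered 9 at day 8, and 11 in del/del and 13 in fl/fl from day 5 to day 8. Over all tested genes voom weights gave 927 higher and 951 lower at day 8. From day 5 to day 8 they gave 1513 higher and 960 lower in del/del, and 506 and 248 in fl/fl. Single genes were followed through the alternatives where they passed in a comparison, or, where none passed, for the 3 with the smallest p. Of those, reversed on the deposited scale were Mcm2 (0.07) and Mcm7 (0.03) at day 1, Ccne1 at day 5 (-0.03), Mcm2 (0.25), Mcm5 (0.0) and Mcm6 (0.23) in del/del and Ccnd1 (-0.04) in fl/fl from day 5 to day 8. That scale differs by a shift of each library. Counting also the genes that did not pass, the sign differed between the scales for 31 of 45 genes at day 1, 28 at day 5, 3 at day 8 (Mybl2 among them), 3 for the mean, 6 for the change of the genotype difference, 3 in del/del and 0 in fl/fl from day 1 to day 5, and 30 in del/del and 2 in fl/fl from day 5 to day 8. Removing the read density trend gave a replication minus mitosis difference of 0.39 in del/del from day 1 to day 5.

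Leaving out both the line 3 del/del library of day 5 and the line 3 fl/fl library of day 8, a choice made after seeing the data, gave 20 calls at day 8, 41 in del/del and 43 in fl/fl from day 1 to day 5, 14 in del/del and 22 in fl/fl from day 5 to day 8, 1 for the mean and 2 for the change of the genotype difference, with a replication minus mitosis difference of 0.0 in fl/fl from day 5 to day 8 and of -0.32 for the change of the genotype difference. With the cell line as replicate block, 13 genes were called at day 8, 27 in del/del and 33 in fl/fl from day 1 to day 5. Over all tested genes that fit called 913 higher and 765 lower at day 8. From day 1 to day 5 it called 2894 higher and 2501 lower in del/del, and 3129 and 2429 in fl/fl. Among the 45 genes the pairing changed no call other than those given with the results. Over the single genes followed and all alternatives, 2076 results kept their direction and side of the threshold, 404 lost the call, 13 gained one and 7 reversed. The cause of these moves was not tested. Depth limits the low genes: Cdc25c had 7 reads, Aurkb 15, Cdc6 16 and Ccnb1 18 in their lowest library.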
